A study of Mus musculus with 6 samples.

Results

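The transcripts described here are those of 10 checkpoint and inhibitory receptor genes of T cells, Ctla4, Pdcd1, Lag3, Tigit, Havcr2, Btla, Cd5, Cd160, Cd200 and Cd96, taken by gene name from a deposited table of 54532 mouse genes. Each name matched 1 row of the table. The cells were naive CD4+ T cells of C57BL/6 mice, from a source labelled as spleen lymphocytes. Every culture ran for 72 h on CD3/CD28 beads in medium with IL-2 and neutralising antibodies to IFNγ and IL-4, so both groups share that stimulation. The cultures received either NETs (3 libraries) or vehicle (3 libraries). NETs (neutrophil extracellular traps) are strands of chromatin, loaded with granule proteins, that neutrophils expel; neither their origin nor their concentration is stated in the sources used here. The labels do not say whether replicates were separate mice or cultures. The p-values then measure only the spread between these libraries, which may be technical.

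Inhibitory receptors are membrane proteins that dampen signals from the T cell receptor and from costimulatory receptors. Several carry tyrosine motifs in their tails that recruit phosphatases, and others compete with activating receptors for a shared ligand. Most of them are induced or raised by T cell activation, and Ctla4 is also a constant feature of regulatory T cells, which can appear in CD4+ cultures.

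Libraries held between 15657622 and 18655997 counts, and the TMM scaling factors (edgeR's correction for library composition) lay between 0.989 and 1.01. The groups did not separate fully on the first principal component of all genes tested. The 7 defining genes of CD4 T cells, among them Cd4, Cd3e and Trac, summed to 3382 to 3630 CPM (counts scaled to a common library total) in NETs libraries and 3415 to 3901 CPM in vehicle libraries. Markers of other cells were low beside that sum, but not beside every receptor. The myeloid marker Lyz2 averaged 36.0 CPM with NETs and 23.5 CPM with vehicle, and the CD8 marker Cd8b1 15.3 and 18.0 CPM. Both exceeded Lag3 (10.6 and 9.13 CPM) and Pdcd1 (8.05 and 7.93 CPM). The 5 B cell markers summed to 13.2 to 19.2 CPM with NETs and 17.6 to 18.3 CPM with vehicle, the 5 NK cell markers to 8.33 to 11.47 and 10.1 to 15.4 CPM, the 2 CD8 markers to 13.0 to 19.5 and 18.4 to 20.8 CPM, and the 2 gamma-delta T cell markers to 7.98 to 10.6 and 8.84 to 15.1 CPM. The 7 myeloid and dendritic markers summed to 38.5 to 46.2 CPM with NETs and 27.0 to 37.9 CPM with vehicle, and the 9 neutrophil markers to 4.13 to 5.16 and 1.55 to 2.87 CPM, so both sums were higher in every NETs library than in any vehicle library. Of the B cell markers 4 of 5 lay below 0 on the log2 fold change, and Pax5 had 62 reads with NETs and 127 with vehicle, with NETs libraries wholly lower (log2 fold change −1.11; edgeR adjusted p = 0.292). Lyz2 carried most of the myeloid sum, whereas the dendritic marker Itgax had 16 reads with NETs and 47 with vehicle. Of the neutrophil markers, S100a9 had 60 reads with NETs and 0 with vehicle, S100a8 28 and 1, and Ly6g had 0 in both. The groups overlapped for the rest. Mpo had 107 reads with NETs and 81 with vehicle, Ltf 19 and 23, and Csf3r 9 and 8. Ngp had 17 and 0, Elane 8 and 2, and Camp 1 and 0. The part of these cells in the receptor values was not tested.

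Levels between genes were compared on the deposited FPKM values, in which reads are scaled for library size and for a length assigned to each gene. Ctla4, which captures the ligands of the costimulatory receptor Cd28, was the most abundant, at 278 ± 12.7 FPKM with NETs and 272 ± 15.8 FPKM with vehicle (SD, n = 3 each, here and below). Cd5, a scavenger-type receptor that tunes T cell receptor signals down, followed at 174 ± 17.0 FPKM with NETs and 175 ± 15.2 FPKM with vehicle. Btla, a receptor for the herpesvirus entry mediator Tnfrsf14, stood at 66.2 ± 3.15 and 81.0 ± 3.0 FPKM in NETs and vehicle libraries. The level of each of these 3 genes lay apart from its neighbours in the order in all 6 libraries.

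Cd200, a surface glycoprotein that signals to its receptor Cd200r1 on other cells, had 37.8 ± 6.63 FPKM with NETs and 50.3 ± 5.10 FPKM with vehicle. Cd200 is thus a ligand, counted among the receptors here because the choice of genes includes it. Cd96, a receptor for the poliovirus receptor Pvr, had 36.9 ± 8.10 and 38.9 ± 4.45 FPKM in NETs and vehicle libraries. Those 2 genes overlapped in level over the 6 libraries. Lag3, a relative of Cd4 that binds MHC class II, stood at 8.73 ± 1.6 FPKM with NETs and 7.52 ± 2.52 FPKM with vehicle, and Pdcd1, which encodes PD-1, at 4.17 ± 0.157 and 4.11 ± 0.930 FPKM. Lag3 and Pdcd1 also overlapped, and both lay below Cd96 in every library. Tigit, another Pvr receptor, and Cd160, a further Tnfrsf14 receptor, averaged 0.754 and 0.685 FPKM over the 6 libraries and overlapped.

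The lengths behind the deposited FPKM were shorter than all exons of the gene for several receptors (912 against 3321 bases for Cd200, 1079 against 2330 for Ctla4), and they set part of this order. In an alternative chosen after seeing the data, CPM were divided by the length of all exons in kilobases. Ctla4 and Cd5 still led, at 127 and 73.2 over the 6 libraries, but Cd96 at 37.9 then overlapped Btla at 38.6, and Cd200 followed at 12.1, below Cd96 in every library. Differences between NETs and vehicle libraries in 1 gene do not depend on its length.

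**Figure D1:**
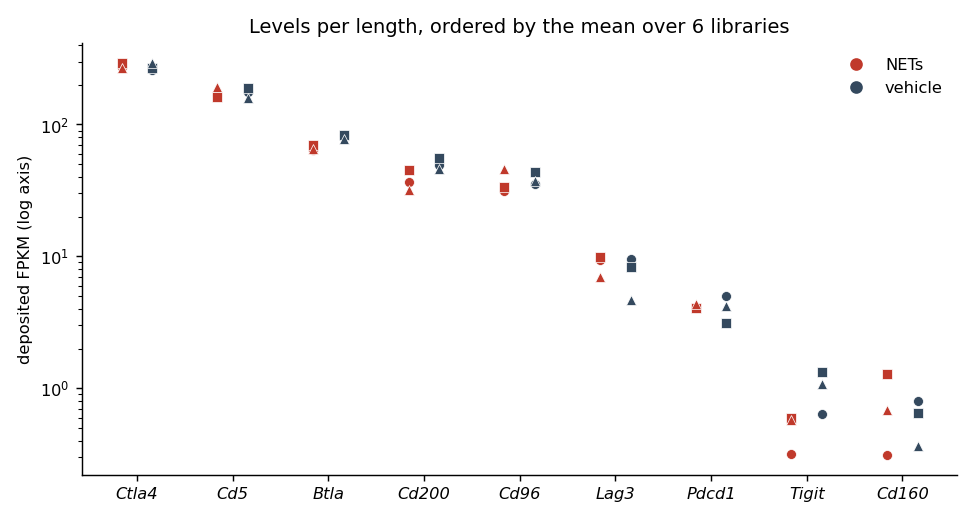
Deposited FPKM (log axis) of 9 receptors in each of the 3 NETs libraries (red, left of each pair) and 3 vehicle libraries (dark blue, right), with marker shapes for replicates 1 to 3 (circle, square, triangle). Ctla4 leads at 259 to 292 FPKM and Tigit and Cd160 lie between 0.312 and 1.32 FPKM; Havcr2 is left out because 5 of its 6 values are 0.

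Whether NETs moved any of these receptors was tested in a fit over all 13900 genes kept by a filter on low counts, which 9 of the 10 receptors passed. In edgeR (quasi-likelihood test, Benjamini-Hochberg adjusted), 0 of the 9 receptors passed an adjusted p of 0.05 (background: 0 genes, 0%), with adjusted p-values from 0.223 to 0.987. Limma-voom also called 0 of the 9. DESeq2, which called 129 genes (1.5% of those it adjusted), called 0 of the 5 receptors to which it gave an adjusted p and gave none to Pdcd1, Lag3, Tigit and Cd160. At an unadjusted p under 0.05 edgeR had 2 receptors, Btla and Cd200, both lower with NETs, where 12.8% of all genes tested passed that mark, 6.06% lower and 6.72% higher with NETs. The receptors' median log2 fold change was 0.01, with 5 above 0 and 4 below, beside 0.00 over all genes tested. The NETs libraries lay wholly below the vehicle libraries in 3 receptors, Btla, Cd200 and Tigit, wholly above them in 0, and overlapped them in 6; over all genes 16.7% did not overlap, 9.04% wholly below and 7.68% wholly above. The share among receptors rests on few genes, and 1 of them, Tigit, entered the test only through its vehicle values.

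**Figure D2:**
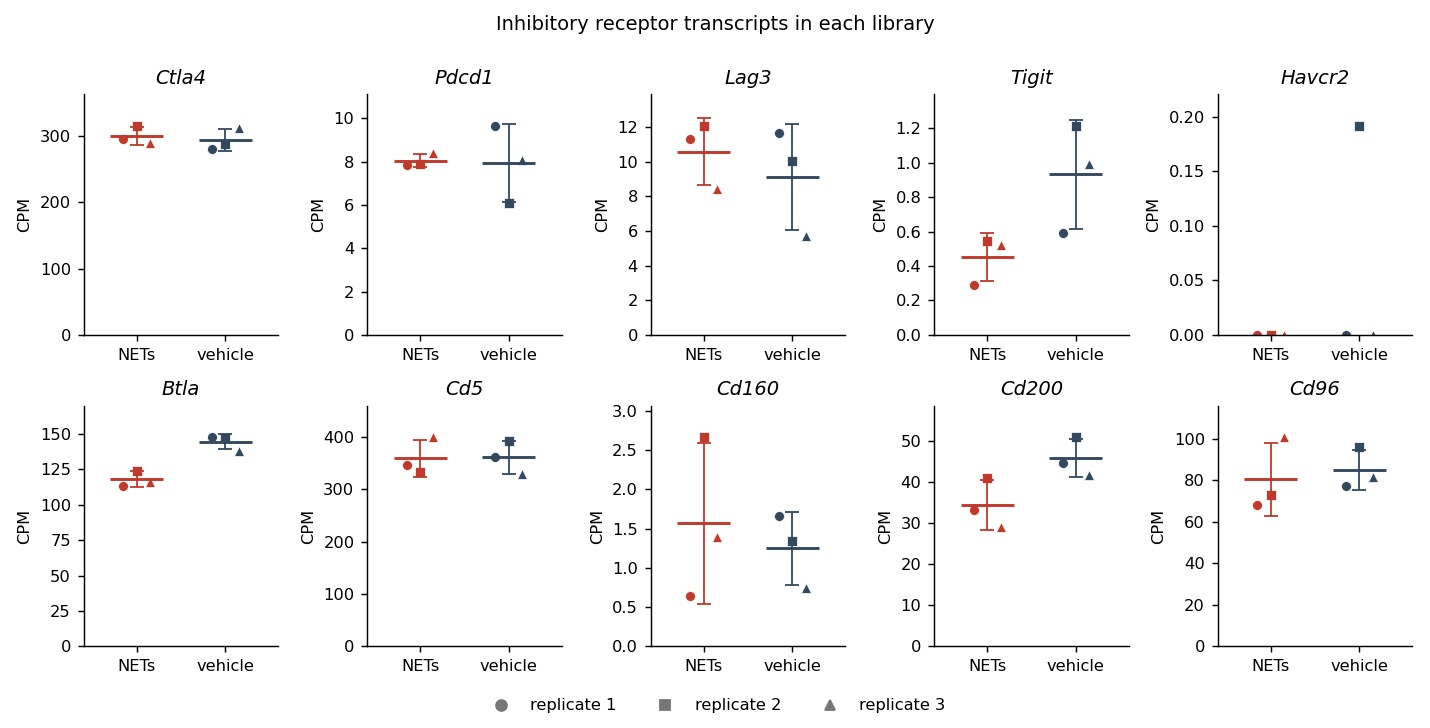
CPM of the 10 receptors in each library, NETs on the left and vehicle on the right of each panel, with the mean (line) and SD (bar, n = 3) except for Havcr2; marker shapes give replicates 1 to 3, and each panel has its own axis from 0. Btla, Cd200 and Tigit have all 3 NETs points below all 3 vehicle points, and the groups overlap in the other panels.

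Btla (ENSMUSG00000052013; GRCm38 chromosome 16, 45224315 to 45257670, plus strand) had 113, 124 and 116 CPM in NETs replicates 1 to 3 and 148, 147 and 138 CPM in vehicle replicates 1 to 3. Every NETs library was below every vehicle library, with a gap between 124 and 138 CPM. The group means were 118 ± 5.61 CPM with NETs and 144 ± 5.34 CPM with vehicle, a log2 fold change of −0.28 (SE 0.08; 95% interval −0.46 to −0.11; edgeR unadjusted p = 0.00382, adjusted p = 0.223). This is 0.823-fold. The spread between libraries was 4.76% with NETs and 3.70% with vehicle, beside a counting error of 2.11% for the mean library. In bulk RNA, fewer cells that express a gene and less RNA of it per cell cannot be told apart.

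Cd200 (ENSMUSG00000022661; GRCm38 chromosome 16, 45382135 to 45409053, minus strand) had 33.2, 41.0 and 29.2 CPM in NETs replicates 1 to 3 and 44.7, 51.0 and 41.9 CPM in vehicle replicates 1 to 3. The groups did not overlap, but NETs replicate 2 at 41.0 CPM lay close under vehicle replicate 3 at 41.9 CPM. Means were 34.5 ± 6.05 CPM with NETs and 45.8 ± 4.65 CPM with vehicle, a log2 fold change of −0.40 (SE 0.13; 95% interval −0.69 to −0.11; edgeR unadjusted p = 0.00935, adjusted p = 0.261). Without NETs replicate 2 the log2 fold change was −0.54 (edgeR adjusted p = 0.183) and without NETs replicate 3 it was −0.30 (unadjusted p = 0.0526).

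Btla and Cd200 are adjacent among the protein-coding genes tested, 124.5 kb apart, and over the 6 libraries their log2 CPM had a Pearson r of 0.893, a description that includes the group difference and the shared libraries. Their promoters are shown because both genes lay lower with NETs at an unadjusted p under 0.05. The 250 bases before each RefSeq start are given 5′ to 3′ on the gene's strand from RefSeq (GRCm38.p6). Capitals mark the Ets core GGAAG and the cyclic AMP response element core TGACG on either strand. The Btla window is chr16:45224087-45224336 (plus strand) and the Cd200 window is chr16:45409054-45409303 (minus strand).
Btla: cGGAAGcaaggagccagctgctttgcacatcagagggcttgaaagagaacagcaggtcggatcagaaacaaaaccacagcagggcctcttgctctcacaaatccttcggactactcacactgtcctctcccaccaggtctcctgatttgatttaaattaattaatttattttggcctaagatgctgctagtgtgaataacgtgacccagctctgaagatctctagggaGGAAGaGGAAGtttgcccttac
Cd200: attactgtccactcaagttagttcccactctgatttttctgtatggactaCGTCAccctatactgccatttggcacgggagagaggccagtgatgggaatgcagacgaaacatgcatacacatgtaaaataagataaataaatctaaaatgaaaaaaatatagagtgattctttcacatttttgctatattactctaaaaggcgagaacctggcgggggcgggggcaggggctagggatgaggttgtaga
The Btla window held 3 matches to GGAAG and 0 to TGACG, and the Cd200 window 0 and 1. Of 32851 promoter windows of the same length, 64.1% held GGAAG and 17.8% held TGACG. Neither window held the AP-1 motif TGANTCA (6.75% of all windows), the NFAT core GGAAA (55.6%), the forkhead motif GTAAACA (3.17%) or TATAAA (12.4%), each searched on both strands, and the E box CANNTG (66.2%) matched 1 time in the Btla window and 2 times in the Cd200 window. Promoter entries were found for 9 of the 10 receptors.

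Ctla4 (ENSMUSG00000026011; GRCm38 chromosome 1, 60887000 to 60915832) had 295, 315 and 289 CPM in NETs replicates 1 to 3 and 280, 289 and 313 CPM in vehicle replicates 1 to 3, so the groups overlapped. The log2 fold change was 0.04 (SE 0.08; 95% interval −0.13 to 0.21; edgeR adjusted p = 0.868), an interval that holds differences of up to 0.21 on the log2 scale. The 3 regulatory T cell markers, Foxp3, Il2ra and Ikzf2, summed to 1254 to 1398 CPM with NETs and 1114 to 1446 CPM with vehicle, and these groups overlapped too. Il2ra, which activated T cells also express, carried most of that sum, and Foxp3 alone averaged 145 CPM with NETs and 127 CPM with vehicle (log2 fold change 0.20; edgeR adjusted p = 0.546), with overlapping groups. Counts are per gene, so the full-length and the soluble forms of Ctla4 cannot be told apart. The pseudogene Rpl18-ps1 lies within the gene and had 64 reads with NETs and 59 with vehicle, against 15829 and 14773 reads for Ctla4.

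Cd5 (ENSMUSG00000024669; chromosome 19, 10718143 to 10738974 as deposited) had 347, 333 and 400 CPM in NETs libraries and 363, 392.1 and 329 CPM in vehicle libraries. The means of 360 ± 35.2 and 361 ± 31.4 CPM in NETs and vehicle libraries differed by far less than either SD (log2 fold change 0.01, SE 0.10; 95% interval −0.20 to 0.21; edgeR adjusted p = 0.987). Cd96 (ENSMUSG00000022657; GRCm38 chromosome 16, 46035657 to 46120251) had 68.0, 72.8 and 101 CPM with NETs and 77.4, 96.0 and 81.8 CPM with vehicle. NETs replicate 3 held the highest value of all 6 libraries and the other NETs libraries the lowest, and the log2 fold change was −0.07 (SE 0.14; edgeR adjusted p = 0.878). Without NETs replicate 3 it was −0.27 (unadjusted p = 0.0416, adjusted p = 0.380). Cd5 and Cd96 had a Pearson r of 0.820 over the 6 libraries, again as a description.

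Lag3 (ENSMUSG00000030124; GRCm38 chromosome 6, 124904361 to 124911705) had 11.3, 12.1 and 8.40 CPM with NETs and 11.6, 10.03 and 5.72 CPM with vehicle. Replicate 3 was the lowest library of each group, and the groups overlapped. The log2 fold change was 0.22 (SE 0.25; 95% interval −0.30 to 0.75; edgeR adjusted p = 0.737), and without vehicle replicate 3 it was −0.02. The spread among vehicle libraries was 33.5%, against a counting error of 7.65% for the mean library. Pdcd1 (ENSMUSG00000026285; GRCm38 chromosome 1, 94038305 to 94052553) had 7.86, 7.88 and 8.40 CPM with NETs and 9.65, 6.07 and 8.08 CPM with vehicle. The NETs values lay inside the vehicle range, with a log2 fold change of 0.03 (SE 0.21; 95% interval −0.43 to 0.49; edgeR adjusted p = 0.969).

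Tigit (ENSMUSG00000071552; GRCm38 chromosome 16, 43648867 to 43664146) had 5, 10 and 9 reads in NETs replicates 1 to 3 and 11, 19 and 16 reads in vehicle replicates 1 to 3. Its groups did not overlap, at 0.291, 0.544 and 0.525 CPM with NETs and 0.590, 1.21 and 0.995 CPM with vehicle. The filter asked for 0.583 CPM in 3 libraries, which Tigit met in all 3 vehicle libraries and in 0 NETs libraries. It entered the test only through the group where it was high, so its place among the lower receptors is no support for a difference. Its log2 fold change was −1.01 (SE 0.60; 95% interval −2.28 to 0.26; edgeR unadjusted p = 0.112, adjusted p = 0.497).

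Cd160 (ENSMUSG00000038304; GRCm38 chromosome 3, 96798763 to 96829351) had 11, 49 and 24 reads with NETs and 31, 21 and 12 reads with vehicle. NETs libraries held both the lowest and the highest count, and the edgeR log2 fold change, 0.33 (SE 0.55, adjusted p = 0.837), became −0.28 without NETs replicate 2. Pdzk1, which overlaps Cd160 on the opposite strand, had 0 reads in both groups. Havcr2 (ENSMUSG00000020399; GRCm38 chromosome 11, 46454935 to 46481255), which encodes TIM-3, had 0 reads in all 3 NETs libraries and 3 reads with vehicle, all in replicate 2. A count of 0 over the NETs libraries allows up to 3 counts, or 0.0569 CPM over the group, so Havcr2 was at or under the limit of detection in both groups and was not tested.

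**Figure D3:**
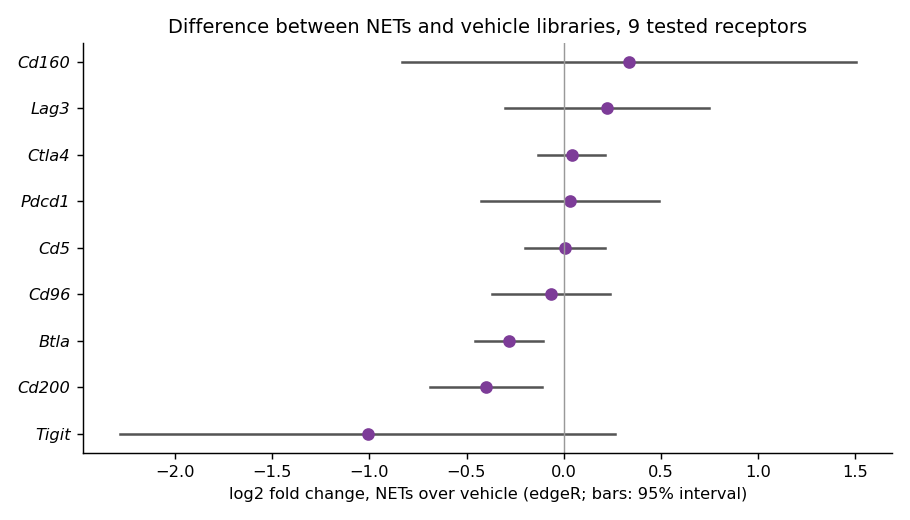
Log2 fold change of NETs over vehicle for the 9 tested receptors from edgeR, with 95% intervals (not adjusted for the number of genes). Btla and Cd200 have intervals that leave out 0, from −0.46 to −0.11 and from −0.69 to −0.11, and the widest interval is that of Tigit, from −2.28 to 0.26.

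Summed over the 10 genes, the receptors took 876, 910 and 954 CPM in NETs libraries and 936, 994 and 920 CPM in vehicle libraries, and the groups overlapped. Ctla4 and Cd5 together made up 73.2%, 71.3% and 72.2% of those reads with NETs and 68.7%, 68.5% and 69.8% with vehicle.

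Receptors that share a ligand or a locus were also compared as ratios of reads within a library, which do not depend on library scaling. The ratio of Ctla4 to Icos, a costimulatory receptor encoded 62.1 kb away, was 2.58, 2.67 and 2.71 in NETs replicates 1 to 3 and 2.34, 2.33 and 2.30 in vehicle replicates 1 to 3. All NETs libraries exceeded all vehicle libraries, and the difference of 0.19 on the log2 scale was larger than the SDs of 0.04 with NETs and 0.01 with vehicle. The two-sided exact permutation p was 0.1, the smallest that 3 against 3 libraries allows, and 0.5 after adjustment over the 5 ratios. Icos itself had 114, 118 and 107 CPM with NETs and 120, 124 and 136 CPM with vehicle (edgeR log2 fold change −0.15, SE 0.09, adjusted p = 0.482).

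The other ratios overlapped between groups. Ctla4 to Cd28, which compete for Cd80 and Cd86, stood at 0.770, 0.748 and 0.800 with NETs and 0.628, 0.661 and 0.772 with vehicle (difference 0.18 on the log2 scale; exact permutation p = 0.3), or 0.11 without vehicle replicate 1. Cd96 to Cd226, an activating receptor for the same ligand, differed by 0.11 on the log2 scale (exact permutation p = 0.4), or 0.20 without vehicle replicate 2 and 0.05 without vehicle replicate 1. Cd160 to Btla differed by 0.47 (exact permutation p = 0.4), or 0.01 without NETs replicate 2, and Lag3 to Cd4 by 0.28 (exact permutation p = 0.6), or 0.02 without vehicle replicate 3. Tigit to Cd226 was not computed because Tigit had as few as 5 reads in a library.

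**Figure D4:**
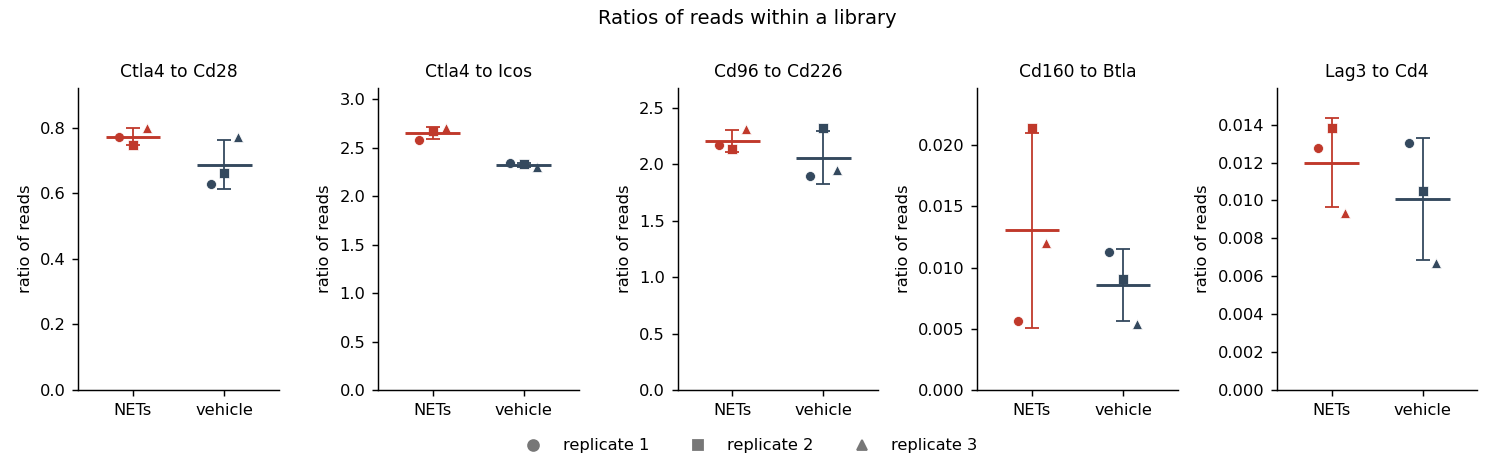
Ratio of reads of 2 genes within each library, NETs left and vehicle right in each panel, with mean and SD (n = 3), marker shapes for replicates 1 to 3 and a separate axis from 0 per panel. For Ctla4 to Icos the NETs points lie at 2.58 to 2.71 and the vehicle points at 2.30 to 2.34; the groups overlap in the other 4 panels.

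Genes around the receptors were read in 6 lists. At an unadjusted p under 0.05, 6.06% of all genes tested were lower and 6.72% higher with NETs (edgeR). These shares are the background to the counts in each list. For groups that did not overlap, the background was 9.04% of all genes tested wholly below and 7.68% wholly above. Among 18 tested ligand genes, edgeR called 0 after adjustment (limma-voom 0; DESeq2 1, Hmgb1, of the 8 to which it gave an adjusted p), and at an unadjusted p under 0.05 there were 2 higher and 1 lower. The list's median log2 fold change was −0.06. Lgals3, a galectin that binds Lag3 and is abundant in macrophages, had 10.5, 6.20 and 7.99 CPM with NETs and 4.61, 3.51 and 3.67 CPM with vehicle (edgeR log2 fold change 1.07, SE 0.26, adjusted p = 0.223). All NETs libraries were above all vehicle libraries, as they were in the neutrophil marker sum and in the myeloid sum, which Lyz2 mostly carried. The part of these sums in the Lgals3 value was not tested. Hmgb1, a chromatin protein that TIM-3 can bind, averaged 594 CPM with NETs and 490 CPM with vehicle (edgeR log2 fold change 0.29, SE 0.08, adjusted p = 0.223); it has many processed pseudogenes, so its counts are uncertain.

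Among the partners of the other receptors, Cd200r1, the receptor for Cd200, had 9.03, 10.3 and 8.34 CPM with NETs and 14.3, 13.2 and 9.26 CPM with vehicle (edgeR log2 fold change −0.40, SE 0.20, adjusted p = 0.423), and the groups overlapped. Tnfrsf14, the ligand of Btla and Cd160, stood at −0.07 (adjusted p = 0.874). Pvr, the ligand of Tigit and Cd96, had 59.5, 73.6 and 54.3 CPM with NETs and 89.6, 90.3 and 66.0 CPM with vehicle (log2 fold change −0.38, SE 0.13; edgeR unadjusted p = 0.0126, adjusted p = 0.273), so that NETs replicate 2 lay above vehicle replicate 3. The PD-1 ligands Cd274 and Pdcd1lg2 had log2 fold changes of −0.14 and 0.40, and the Ctla4 ligands Cd80 and Cd86 of −0.04 and 0.18, each with overlapping groups.

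Of 16 costimulatory partners, 0 passed after adjustment by edgeR, limma-voom or DESeq2, which adjusted 14 of them. The median was −0.10, with 10 below 0. At an unadjusted p under 0.05, 1 gene was lower, the homotypic adhesion receptor Cd84 (−0.29), beside 6.06% of all genes. The adhesion receptor Cd2 had NETs libraries wholly above vehicle libraries (433 and 417 CPM on average with NETs and with vehicle), at a log2 fold change of 0.07. Cd28 and Cd226 stood at −0.13 and −0.17.

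Of 29 proteins that bind receptor tails or carry inhibitory signals, 0 passed after adjustment by the same 3 tools (28 adjusted by DESeq2). At an unadjusted p under 0.05 there were 2 higher and 3 lower, beside 6.72% and 6.06% of all genes. The list median was 0.04. Trat1, a transmembrane adaptor that stabilises surface Ctla4 and the T cell receptor complex, had 87.8, 109 and 104 CPM with NETs and 127, 141 and 114 CPM with vehicle (edgeR log2 fold change −0.34, SE 0.11, adjusted p = 0.238). Cblb, a ubiquitin ligase that restrains T cell activation, had 215, 221 and 222 CPM with NETs and 255, 282 and 247 CPM with vehicle (−0.24, SE 0.08; adjusted p = 0.265). Ap2m1, the clathrin adaptor subunit that takes Ctla4 into the cell, stood at 0.23 and the adaptor Grb2 at 0.19. NETs libraries lay wholly above vehicle libraries for these 2 genes of the list and wholly below for 4. All genes tested gave 7.68% and 9.04%. The 4 were Trat1, Cblb, Cbl (−0.17) and Pag1 (−0.15). The third gene lower at an unadjusted p under 0.05 was Ptpn22 at −0.29, a phosphatase that dampens T cell receptor signals, with overlapping groups. It was named after its values were seen. The phosphatases that inhibitory tails recruit lay at 0.11 for Ptpn6, 0.14 for Ptpn11 and 0.05 for Inpp5d, each with overlapping groups.

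Among 27 transcription factors linked to exhaustion or to receptor genes, 0 passed by edgeR or limma-voom and 1, Id3, of the 20 adjusted by DESeq2. At an unadjusted p under 0.05 there were 3 higher and 2 lower, beside 6.72% and 6.06% of all genes. The list median was −0.08. Id3, an inhibitor of E proteins, had 41.5, 41.5 and 44.6 CPM with NETs and 33.1, 24.8 and 33.8 CPM with vehicle (edgeR log2 fold change 0.49, SE 0.13, adjusted p = 0.223). Nfatc2, which drives receptor genes after calcium entry, stood at 0.22 and the follicular helper factor Bcl6 at −0.43. Groups did not overlap in either, as was so for Foxo3 at −0.10 and for 16.7% of all genes tested. The others under that mark, named after their values were seen, were Irf8 at 0.46 and Maf at −0.88, both with overlapping groups. Tox, a factor of T cell exhaustion, stood at −0.02 (SE 0.13). Batf3 was not tested, with 28 reads with NETs and 4 with vehicle. Its groups overlapped, with NETs replicate 3 at 0.117 CPM below vehicle replicate 3 at 0.249 CPM.

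Among other inhibitory receptors, 25 of 28 listed symbols were in the table and 14 were tested. Of those tested, 0 passed after adjustment by edgeR, limma-voom or DESeq2, which adjusted 7. At an unadjusted p under 0.05 there were 1 higher and 2 lower, beside 6.72% and 6.06% of all genes. The list median was −0.02. Sirpa, an inhibitory receptor of myeloid cells that binds Cd47, had 2.39, 3.91 and 2.92 CPM with NETs and 2.09, 0.958 and 1.37 CPM with vehicle (edgeR log2 fold change 1.06, SE 0.39, adjusted p = 0.288). The myeloid sum, which Lyz2 mostly carried, was also higher with NETs, and its part in the Sirpa value was not tested. Lilrb4a had 2.74, 3.37 and 1.81 CPM with NETs and 4.40, 4.98 and 4.72 CPM with vehicle (−0.82, SE 0.30; adjusted p = 0.288). Both genes were low, and Lilrb4a has a close relative, Lilr4b, at −0.41, with which reads may be shared. Pecam1, the second lower gene, stood at −0.27 with overlapping groups. Vsir, which encodes VISTA, averaged 212 CPM in both groups, at a log2 fold change of 0.01.

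Of 15 genes of activation state, 0 passed by edgeR or limma-voom and 1, Il7r, of the 13 adjusted by DESeq2. At an unadjusted p under 0.05 there were 0 higher and 3 lower, beside 6.72% and 6.06% of all genes. The list median was −0.12. Il7r, the IL-7 receptor chain of resting T cells, had 105, 133 and 146 CPM with NETs and 201, 213 and 154 CPM with vehicle (edgeR log2 fold change −0.56, SE 0.14, adjusted p = 0.223). The early activation marker Cd69 stood at −0.23 and Myc at −0.12, each with NETs libraries wholly below vehicle libraries, as in 9.04% of all genes. In all, 7 of the 15 genes lay above 0 and 8 below. The activation markers Il2ra, Cd44 and Tfrc stood at 0.13, 0.13 and 0.12, each with overlapping groups. The resting-cell genes Ccr7, Klf2 and S1pr1 stood at 0.03, 0.06 and −0.14, each with overlapping groups. The proliferation marker Mki67, lower at an unadjusted p under 0.05 and named after its values were seen, stood at −0.18 with overlapping groups.

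**Figure D5:**
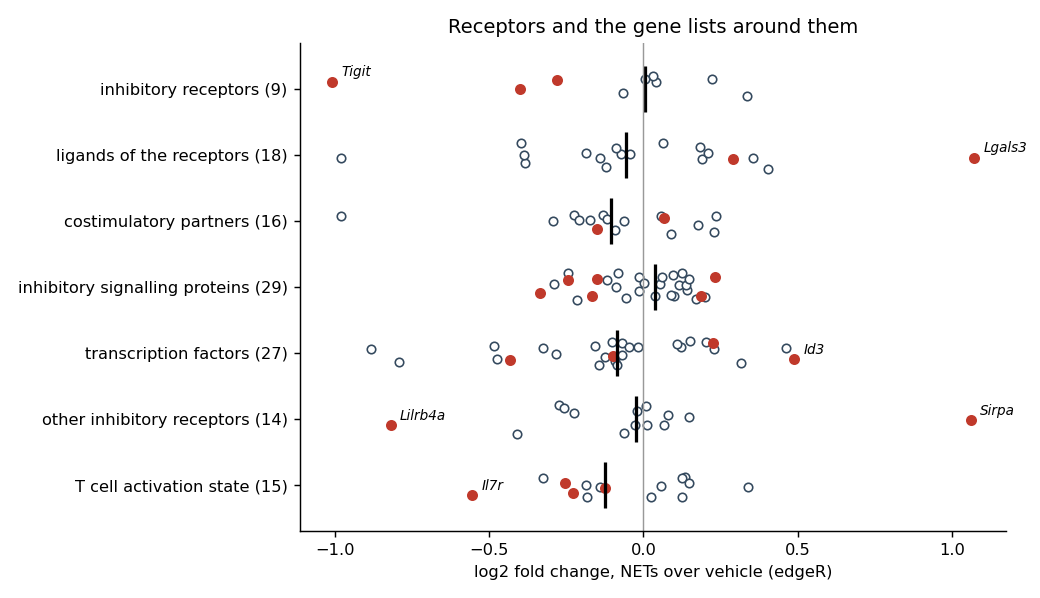
Log2 fold change of NETs over vehicle (edgeR) for each tested gene of the receptors and of 6 lists around them, with the number tested in brackets and the list median as a black line; filled red points are genes whose groups do not overlap and open points those that overlap. List medians lie between −0.12 and 0.04, and Lgals3, Sirpa and Tigit lie farthest out among the filled points, at 1.07, 1.06 and −1.01.

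The receptors share positions in the genome that the choice of genes did not use. Tigit, Btla, Cd200 and Cd96 lie within 2.47 Mb of chromosome 16, and Cd200r1 lies among them. Of the 19 other genes tested in that stretch, 12 had a log2 fold change below 0, with a median of −0.17, and 2 were lower and 2 higher at an unadjusted p under 0.05. Those 2 lower genes were Gtpbp8 (−0.39) and Slc35a5 (−0.29), the 2 higher ones Atp6v1a (0.29) and Naa50 (0.24), named after their values were seen, as was the stretch itself. Over all genes tested 50.2% had a log2 fold change above 0, and 6.06% were lower and 6.72% higher at that mark. NETs libraries lay wholly below vehicle libraries for 3 of the 19, Gtpbp8, Slc35a5 and Abhd10, and wholly above for 1, Cd200r4 (0.87), a relative of Cd200r1, beside 9.04% and 7.68% of all genes. Atg3, the neighbour of Btla on its other side at 35.8 kb, stood at 0.09, and Abhd10, the neighbour of Cd200 on its other side at 320.7 kb, at −0.16.

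The remaining neighbours, each the nearest tested protein-coding gene on its side, had log2 fold changes between −0.16 and 0.31. Genes that were not tested can lie in between. Ctla4 lies between Cd28 (−0.13) and Icos (−0.15), Lag3 between Cd4 (−0.01) and Ptms (0.15), and Cd5 between Vps37c (0.20) and Cd6 (0.06), a receptor of the same family as Cd5. Pdcd1 lies between D2hgdh (0.08, at 186.0 kb) and Fam174a (0.23, at 1261.1 kb), and Cd160 between Rnf115 (0.01) and Gpr89 (0.31). Zbtb20 (−0.07) and Qtrt2 (0.25) flank Tigit, and Plcxd2 (−0.16) and Gm4737 (0.24) flank Cd96. For Havcr2 the neighbours were Med7 (0.28, at 12.2 kb) and Rack1 (0.03, at 2319.1 kb). NETs libraries lay wholly above vehicle libraries for Med7, Vps37c and Gpr89 and wholly below for Icos, where 16.7% of all genes did not overlap, and 0 of these neighbours passed the edgeR test after adjustment.

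The genes whose log2 CPM followed a receptor most closely over the 6 libraries were sought among 10081 genes whose mean CPM was 5 or more. With 6 points and so many candidates, high values of r are common, and the values are a description only. Btla was nearest to H2-Q5 (Pearson r = 0.998) and Zfp874a (0.995), and Cd200 to Zfp85 (0.994) and Serp1 (0.991). H2-Q5 has near-identical relatives with which reads may be shared. Ctla4 was nearest to Psma1 (0.996) and Prps2 (0.993), Pdcd1 to Dph5 (0.991) and Fam122b (0.984), and Lag3 to Idh2 (0.993) and Armcx3 (0.977). Cd5 was nearest to Arhgef1 (0.990) and Itm2b (0.989), Cd96 to Mtmr12 (0.989) and Paxx (0.988), and Cd160 to Nsmce2 (0.987) and Dhdh (0.985).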

How the data were processed

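RNA of 3 NETs and 3 vehicle libraries was extracted with RNeasy kits and sequenced on Illumina protocols, according to the labels. The authors deposited raw read counts for each Ensembl gene (whole numbers) and FPKM; from the deposited values, FPKM is the count over a gene length and the library total. The submitters' processing notes name STAR, DESeq2 and build mm9. Counter, annotation release and strand use are not stated in the sources used here, so overlapping genes cannot be told apart by strand. Coordinates in the deposited table equal those of GRCm38 (GENCODE M21) for 98.3% of 54409 shared genes and for 9 of the 10 receptors, Cd5 being the exception, so the table's coordinates are given as GRCm38. The 2 count tables held identical values.

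Counts were filtered with filterByExpr, scaled by TMM and tested in edgeR 4.0.16 (quasi-likelihood, robust, two-sided, group as only term; R 4.3.3), adjusted over 13900 genes. Alternatives were DESeq2 1.42.0, limma 3.58.1 (voom, and trend on log2(FPKM + 1) or log2(FPKM + 0.1)), other scalings and filters, and leaving out each library. The edgeR procedure was run on simulated counts with changes larger than those of Btla and Cd200. Its power for changes of their size was not tested. Tyrosine motifs of the receptor proteins, planned, were not analysed here. CPM uses library totals. Ratios were compared by exact permutation. Counting errors and floors cover counting only, since no molecular identifiers are stated, and a group at 0 has a floor of 3 counts. The receptors and lists were chosen with earlier results of these data known. Named were all 10 receptors, their tested neighbours and ratio partners, and the 2 genes nearest in pattern. Of each list, up to 4 genes whose groups did not overlap were named. Other list genes were named after their values were seen. A list gene is not reported here.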

Additional observations from a re-analysis of the deposited data

How the results depend on the processing

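Over 15 alternatives for each receptor (14 for Tigit and Cd160, which a mean of at least 5 CPM removes), 0 receptors passed an adjusted p of 0.05 in any that gave one; DESeq2 gave none to Pdcd1, Lag3, Tigit and Cd160. Btla stayed between −0.31 and −0.25 (adjusted p 0.0639 to 0.812) and Cd200 between −0.54 and −0.30 (0.0810 to 0.812), and Tigit was below 0 in all 14. Receptors at an unadjusted p under 0.05 numbered 2 in each count-based alternative and 3 on either FPKM scale, where Tigit joined Btla and Cd200. The range was 2 to 2 when a library was left out, though without NETs replicate 3 Cd96 stood in the place of Cd200. Tigit entered the FPKM fits, like the main one, only through its vehicle values. Its constant sign and its place there are therefore no support for a difference. The sign changed for 6 receptors. Cd5 stood at −0.0077 with upper-quartile factors, −0.0092 at a mean of at least 5 CPM and −0.0066 on both FPKM scales. With a library left out, Cd5 ranged from −0.0833 (without NETs replicate 3) to 0.0773, Cd96 from −0.268 to 0.0427 (without NETs replicate 1), Pdcd1 from −0.121 (without vehicle replicate 2) to 0.1862, Cd160 from −0.2756 (without NETs replicate 2) to 0.7059, Ctla4 from −0.0042 (without vehicle replicate 1) to 0.0874 and Lag3 from −0.0227 (without vehicle replicate 3) to 0.4246. The cause was not tested.

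Over all genes edgeR called 0, against 129 by DESeq2, 322 with no filter on low counts, 1 by limma-voom and 2 on each FPKM scale, and from 0 to 405 with a library left out (405 without vehicle replicate 3). List genes at an unadjusted p under 0.05 numbered 20 of the 119 tested in the main fit, where 12.8% of all genes passed. They numbered 31 with no filter and 11 to 27 with a library left out (11 without NETs replicate 1). No ratio difference changed sign when a library was left out, though that of Cd160 to Btla fell to 0.0072. The ratio of FPKM and the replicate block could not alter these differences. Same-numbered libraries did not deviate together (r of deviations from the group means −0.03, −0.06 and −0.18 for numbers 1 to 3), so the numbers were not taken to pair the libraries; with a replicate block edgeR still called 0 receptors, Btla stood at −0.28 (adjusted p = 0.443), Cd200 at −0.41 (adjusted p = 0.437), and list genes at an unadjusted p under 0.05 numbered 16. Depth limits Havcr2, Tigit and Cd160, which had from 3 to 148 reads in all 6 libraries together.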
